A study of Mus musculus with 6 samples.

Results

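Genes that move fatty acids into cells, bind them, activate them or cover the droplets that store them were followed, 10 in all, in splenic CD4+ T cells of obese and lean mice: Cd36, Slc27a1, Slc27a4, Lpl, Fabp4, Fabp5, Acsl1, Pparg, Plin2 and Plin3. They were chosen by gene symbol, with earlier results of these data known. All 10 were present among the 22899 gene rows of the expression tables. The obese group held 3 libraries from C57BL/6 mice given a high-fat diet with 60% of its calories as fat, and the lean group held 3 libraries from C57BL/6 mice given a normal diet. Both diets generally began at 6 to 8 weeks of age and ran for up to 4 months. The cells of both groups were CD4+ T cells isolated from spleen by flow cytometry, and the labels leave it unstated if mice were pooled or each gave its own library, so p-values measure only the spread between these libraries. Cd4 was at 279.3 to 325.3 FPKM in obese and 323.8 to 362.6 FPKM in lean. The obese libraries also carried red cell RNA, with globins at 4.56, 0.702 and 3.89% of all FPKM in obese and 0.0258, 0.0710 and 0.0325% in lean, so obese library 2 stood apart from the other obese libraries. Levels are in FPKM, fragments scaled to transcript length and library size, which allow genes to be set beside each other per unit of length.

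Long-chain fatty acids reach a cell either as free acids carried by albumin or as triglyceride in lipoproteins, from which lipoprotein lipase releases them. CD36 and the SLC27 family promote their uptake, the small FABP proteins carry them through the cytosol, and acyl-CoA synthetases trap them as acyl-CoA for oxidation or for storage in droplets coated by perilipins. PPAR gamma, a nuclear receptor that binds DNA as a partner of RXR, is switched on by fatty acids and drives many of these genes in adipocytes and macrophages, and it is also known from the regulatory T cells of fat tissue.

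Of the 10 genes, 6 rose in the obese libraries and none fell. These were Cd36, Fabp4, Fabp5, Acsl1, Pparg and Lpl, with mean FPKM 1.54 to 5.26 times the lean mean. The test was limma on log2(FPKM + 1), obese minus lean, over the 10788 genes that reached 1 FPKM in 3 or more libraries, and a gene was called at a Benjamini-Hochberg adjusted p under 0.05. Over all tested genes 6.28% were called, 5.77% as higher and 0.519% as lower. The obese and lean values did not overlap for 7 genes, the 6 called and Slc27a1, against 31.5% of all tested genes in either direction and 25.4% in the higher direction. The median log2 difference was 0.63 over the 10 genes and 0.10 over all tested genes, of which 70.8% had a positive difference. Because the 10 genes were chosen with earlier results of these data known, these shares describe the list and do not test it. All 10 genes had a positive difference, except that with median-of-ratios scaling Plin3 was at -0.03 and Slc27a4 at -0.01, and with quantile normalization Slc27a4 was at -0.06. Under those 2 scalings the median of all genes was -0.03 in each, and the called genes split into 434 higher and 173 lower with median-of-ratios scaling and 322 higher and 112 lower with quantile normalization, against 622 higher and 56 lower as reported. The 4 genes that did not pass the test were Plin2, Plin3, Slc27a1 and Slc27a4.

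**Figure D1:**
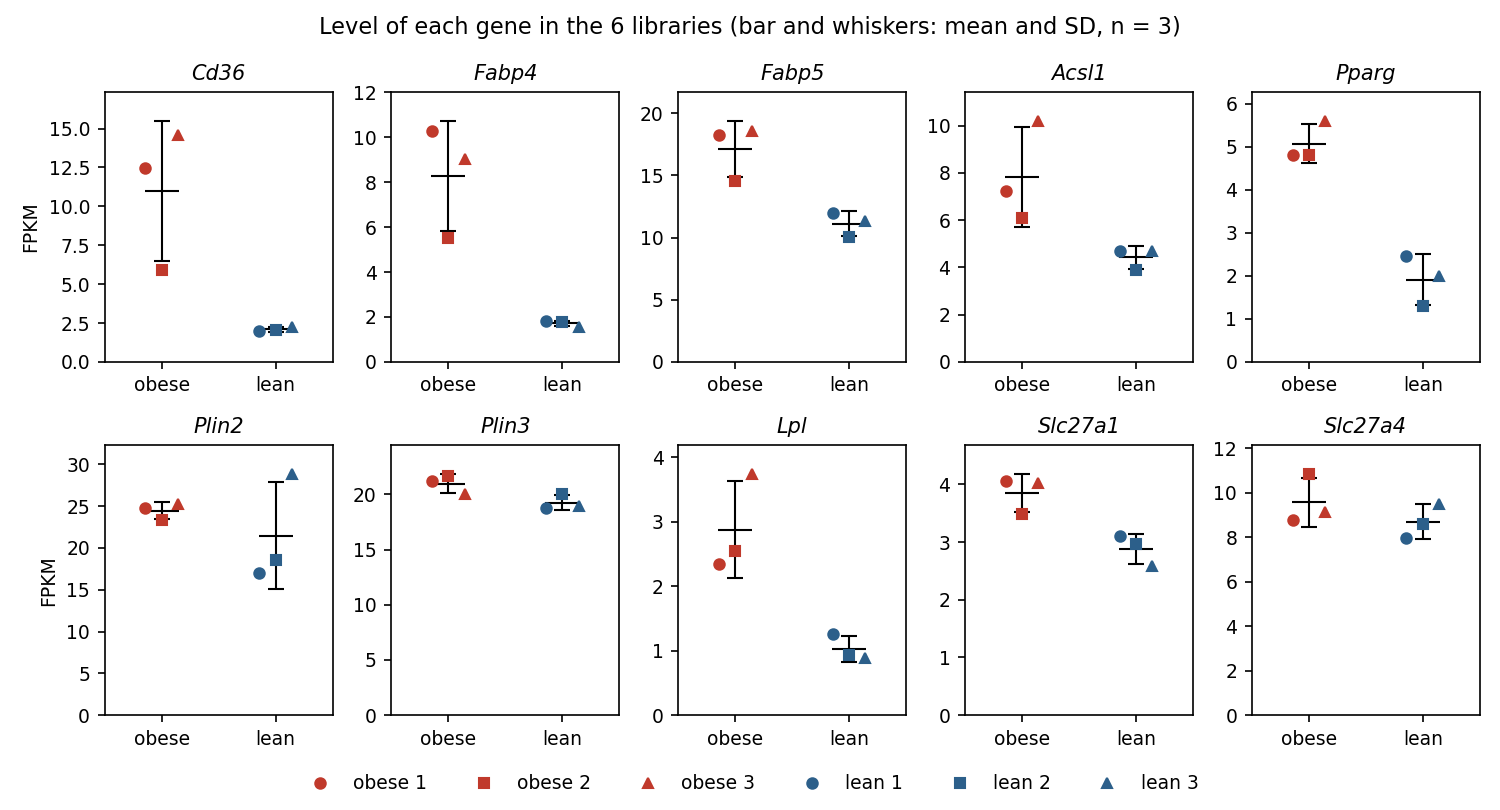
FPKM of each of the 10 genes in the 3 obese libraries (left in each panel) and the 3 lean libraries (right). Points are libraries, and the black bar and whiskers are the mean and SD. Cd36, Fabp4, Pparg, Lpl, Fabp5, Acsl1 and Slc27a1 have every obese library above every lean library, while Plin2, Plin3 and Slc27a4 overlap.

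RefSeq promoter windows of 250 bases upstream of the start on GRCm38.p6 were available for 7 of the 10 genes, in 12 windows. Windows of Cd36 and Plin2 are shown because they hold the hexamer AGGTCA, the recognition unit of nuclear receptors such as PPAR gamma, on the opposite strand, where it reads TGACCT and is in capitals, although Cd36 rose and Plin2 did not pass the test. Of 3 windows of Pparg, 2 hold AGGTCA on the strand of the gene, 28 and 9 bases before the start. These 2 windows overlap annotated exons of Pparg by 193 and 57 of their 250 bases. The remaining Pparg window holds none and is shown beside the Cd36 and Plin2 windows. All are written 5′ to 3′ on the strand that the RefSeq table gives for the gene, upstream of its start. The Cd36 window lies at chr5:17835897-17836146 on the minus strand, the Plin2 window at chr4:86670060-86670309 on the minus strand and the Pparg window at chr6:115421816-115422065 on the plus strand. The Cd36 and Pparg windows overlap the annotated span of their own gene but no exon, so they are intronic to longer transcripts. The Plin2 window also overlaps the span of its own gene, with 1 exonic base. Bases just after the start were found in GENCODE transcripts for the Plin2 and Pparg windows but not for the Cd36 window, so that start and its distances rest on RefSeq alone.
Cd36: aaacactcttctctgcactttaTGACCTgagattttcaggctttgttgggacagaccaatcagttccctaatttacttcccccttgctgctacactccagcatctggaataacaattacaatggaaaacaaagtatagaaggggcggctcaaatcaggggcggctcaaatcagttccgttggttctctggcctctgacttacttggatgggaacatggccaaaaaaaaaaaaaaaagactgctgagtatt
Plin2: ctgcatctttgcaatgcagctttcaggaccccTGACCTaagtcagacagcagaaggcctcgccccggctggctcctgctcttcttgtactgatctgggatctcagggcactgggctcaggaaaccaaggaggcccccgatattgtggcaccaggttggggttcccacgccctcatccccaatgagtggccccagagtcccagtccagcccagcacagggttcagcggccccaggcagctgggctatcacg
Pparg: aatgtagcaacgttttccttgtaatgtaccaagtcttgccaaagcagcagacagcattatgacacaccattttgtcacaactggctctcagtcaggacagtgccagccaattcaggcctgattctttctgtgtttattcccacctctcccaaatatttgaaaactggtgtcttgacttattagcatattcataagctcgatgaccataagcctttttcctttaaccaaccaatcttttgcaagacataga
The hexamer begins 228 bases before the Cd36 start and 218 bases before the Plin2 start. It was found in 4 of the 12 windows, which belong to 3 of the 7 genes, against 14.0% of all 32851 windows in the table on either strand. An exact direct repeat of the hexamer with 1 base between the copies, the ideal form of the PPAR response element, was found in 0 of the 12 windows. It was found in 0.0335% of all windows. Only exact copies were searched, so looser forms of the element were not counted. A match describes letters in a window and does not show binding.

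**Figure D2:**
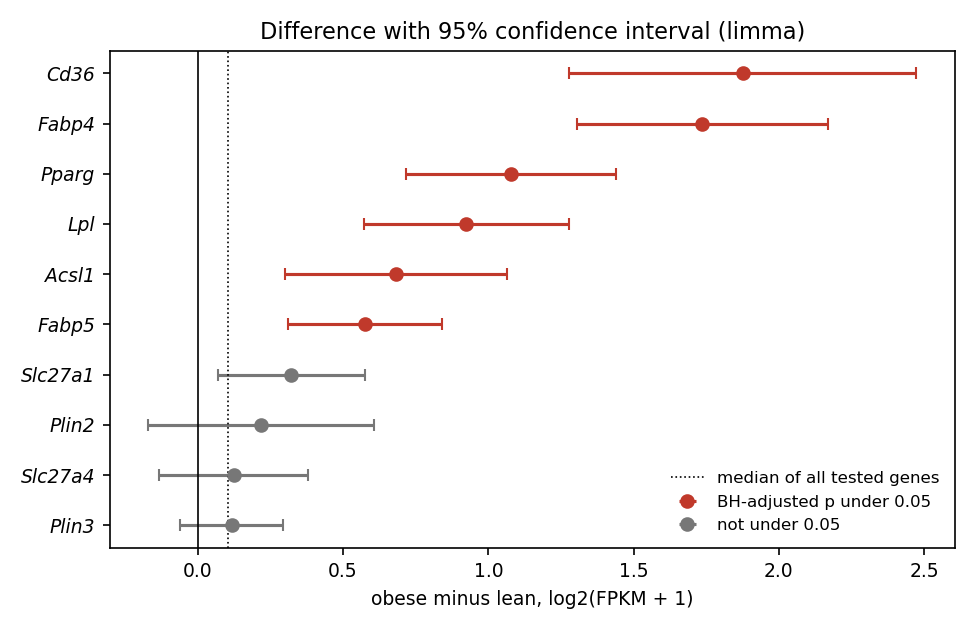
Difference of each gene between obese and lean on the log2(FPKM + 1) scale (points) with its 95% interval (lines). Cd36 at 1.88 and Fabp4 at 1.74 are farthest from 0, and the intervals of Plin2, Plin3 and Slc27a4 include 0.

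Cd36, which encodes a scavenger receptor and fatty acid translocase of macrophages, platelets, endothelium and fat cells, had 12.45, 5.94 and 14.58 FPKM in the obese libraries, against 1.98, 2.02 and 2.27 FPKM in the lean libraries. The groups did not overlap, and obese library 2 was the lowest of the obese libraries. The mean was 10.99 ± 4.50 FPKM in obese and 2.09 ± 0.157 FPKM in lean (SD, n = 3 each), a ratio of 5.26. The log2 difference was 1.88 ± 0.26 (SE; 95% interval 1.28 to 2.47) with an adjusted p of 0.00448 in limma, the 34th largest increase of all tested genes, and it was called with any 1 library left out (highest adjusted p 0.0240). Cd36 stands at position 17781690 to 17888959 of chromosome 5 in GRCm38.p6. In these bulk libraries more cells with the transcript and more RNA per cell cannot be told apart, here and for every gene that follows.

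The 2 SLC27 genes, which encode transport proteins that also act as acyl-CoA synthetases, had smaller differences. Slc27a1 spans 71568728 to 71587307 of chromosome 8 and Slc27a4 spans 29802634 to 29817522 of chromosome 2. Slc27a1, the form of muscle and fat, had 4.06, 3.48 and 4.02 FPKM in obese and 3.10, 2.96 and 2.59 FPKM in lean. The groups did not overlap, yet the difference of 0.32 ± 0.11 (SE; interval 0.07 to 0.57) did not pass the test, with an adjusted p of 0.118. Slc27a4, the form of the gut and skin, had 8.76, 10.84 and 9.13 FPKM in obese and 7.95, 8.62 and 9.52 FPKM in lean, with overlapping groups. Its difference was 0.12 ± 0.11 (interval -0.13 to 0.38), with an adjusted p of 0.512. Within the SLC27 family as measured, Slc27a1 and Slc27a4 gave 22.1 to 27.8% and 60.0 to 68.9% of the summed FPKM in obese, against 19.3 to 24.2% and 62.0 to 70.9% in lean.

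Lpl encodes lipoprotein lipase, which macrophages, fat and muscle secrete to break down circulating triglyceride. It was the lowest of the 10 genes in every library, at 2.35, 2.55 and 3.74 FPKM in obese and 1.26, 0.94 and 0.88 FPKM in lean. The groups did not overlap, and the log2 difference was 0.92 ± 0.16 (SE; interval 0.57 to 1.28; adjusted p of 0.0113 in limma, at most 0.0498 with any 1 library left out). It spans 68880555 to 68906932 of chromosome 8. Because 2 of the 3 lean libraries were under 1 FPKM, Lpl entered the test through the obese libraries. Among genes that act with the enzyme, Gpihbp1, its anchor on capillary walls, was at 0.00 to 0.12 FPKM in obese and 0.00 to 0.13 FPKM in lean, and Vldlr, a receptor for remnant particles, was at 0.01 FPKM in obese and 0.00 FPKM in lean. Others were present: Apoc2, the cofactor of the lipase, had 10.60, 15.26 and 6.02 FPKM in obese and 4.15, 5.11 and 3.35 FPKM in lean, groups that did not overlap, with a difference of 1.09 that did not pass (adjusted p 0.0524 in limma). Angptl4, an inhibitor of the lipase, had 3.80, 3.67 and 3.72 FPKM in obese and 3.11, 2.44 and 2.87 FPKM in lean, also without overlap and not called (adjusted p 0.119 in limma). The maturation factors Lmf1, Lmf2 and Sel1l were at 12.03 to 24.25 FPKM in obese and 10.16 to 22.32 FPKM in lean, and none of them passed.

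Fabp4 and Fabp5 lie on chromosome 3, 187731 bases apart, with Pmp2 and Fabp9 between them, and code for the fatty acid binding proteins of fat cells and macrophages and of the epidermis. Fabp4 had 10.26, 5.52 and 9.02 FPKM in obese and 1.80, 1.76 and 1.57 FPKM in lean. Obese library 2 was again the lowest obese library, and the groups did not overlap. The mean was 8.27 ± 2.46 FPKM in obese and 1.71 ± 0.123 FPKM in lean (SD, n = 3 each), a ratio of 4.83, and the log2 difference of 1.74 ± 0.19 (SE; interval 1.30 to 2.17) had an adjusted p of 0.00130 in limma, the 47th largest increase of all tested genes. It was called with any 1 library left out, with an adjusted p in limma of at most 0.0106. Fabp4 spans 10204342 to 10208616 and Fabp5 spans 10012585 to 10016610 of the chromosome.

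Fabp5 rose by less, at 18.26, 14.53 and 18.60 FPKM in obese and 12.01, 10.08 and 11.31 FPKM in lean. The mean was 17.1 ± 2.26 FPKM in obese and 11.1 ± 0.977 FPKM in lean (SD, n = 3 each). The log2 difference was 0.57 ± 0.12 (SE; interval 0.31 to 0.84; adjusted p of 0.0243 in limma). The call was lost without lean library 1 (adjusted p = 0.0560 in limma), lean library 2 (0.0879), obese library 1 (0.0763) or obese library 3 (0.0721), and it was also lost with no filter on low values (0.0632), median-of-ratios scaling (0.0523) and quantile normalization (0.0675). Fabp4 FPKM were 56.2, 38.0 and 48.5% of Fabp5 FPKM in obese and 15.0, 17.5 and 13.9% in lean, so the ratio of the 2 forms was higher in all obese libraries, and Fabp4 made up 35.1, 26.9 and 31.3% of the summed Fabp family in obese and 12.5, 14.1 and 11.7% in lean. The family as summed left out Fabp9, and none of its other genes was above 0.64 FPKM.

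Acsl1, which encodes a long-chain acyl-CoA synthetase of mitochondria and the endoplasmic reticulum that activates fatty acids, had 7.23, 6.08 and 10.20 FPKM in obese and 4.69, 3.88 and 4.69 FPKM in lean. The groups did not overlap, and the log2 difference was 0.68 ± 0.17 (SE; interval 0.30 to 1.07; adjusted p of 0.0498 in limma), at the threshold. The call held without obese library 2 and was lost without lean library 1 (adjusted p 0.109 in limma), lean library 2 (0.158), lean library 3 (0.0680), obese library 1 (0.0855) or obese library 3 (0.0863), and also with no filter, a filter of 1 FPKM in all 6 libraries, no variance trend, median-of-ratios scaling and quantile normalization. Acsl1 spans 46471037 to 46536051 of chromosome 8. Acsl5 was the main synthetase by FPKM, at 46.16, 50.88 and 47.07 in obese and 42.95, 37.97 and 45.67 in lean, and did not pass the test (difference 0.19, adjusted p 0.219 in limma). Acsl1 made up 12.0, 9.50 and 15.5% of the summed Acsl FPKM in obese and 8.76, 8.24 and 8.04% in lean, which did not overlap. The annotated gene Gm31050 overlaps Acsl1, and the sources used here do not say whether reads were assigned by strand.

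Pparg had 4.81, 4.80 and 5.60 FPKM in obese and 2.46, 1.29 and 1.99 FPKM in lean. The groups did not overlap, and the 3 obese libraries lay close together. The mean was 5.07 ± 0.459 FPKM in obese and 1.91 ± 0.589 FPKM in lean (SD, n = 3 each), and the log2 difference was 1.08 ± 0.16 (SE; interval 0.72 to 1.44; adjusted p of 0.00569 in limma, at most 0.0242 with any 1 library left out). Pparg spans 115360879 to 115490404 of chromosome 6. Of the 11 tested genes of its partners and coregulators, 1 rose (9.09%, against 5.77% called as higher over all tested genes) and none fell. The gene that rose was Rxra, a partner receptor, with 12.98, 12.35 and 11.46 FPKM in obese and 8.16, 7.57 and 8.38 FPKM in lean (difference 0.55 ± 0.09, adjusted p 0.0115 in limma). With quantile normalization the Rxra adjusted p was 0.0706. Ppara, the liver isoform, was at 0.02 FPKM or less in all 6 libraries.

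Plin2 and Plin3 code for perilipins, coats of the lipid droplet, and had the highest levels of the 10 genes in every library. Plin2, a droplet coat made by most cells, had 24.75, 23.36 and 25.25 FPKM in obese and 16.96, 18.59 and 28.81 FPKM in lean. The groups overlapped, because lean library 3 was above all the others, and the difference of 0.22 ± 0.17 (SE; interval -0.17 to 0.60) did not pass (adjusted p 0.445 in limma). Without lean library 3 the difference was 0.44 and the adjusted p 0.0305. The annotated gene Gm12551 overlaps Plin2, which spans 86626910 to 86670217 of chromosome 4, while Plin3 spans 56278962 to 56290511 of chromosome 17. Plin3, a form that moves from the cytosol to new droplets, had 21.20, 21.69 and 20.03 FPKM in obese and 18.79, 20.05 and 18.94 FPKM in lean, again overlapping (difference 0.12 ± 0.08, interval -0.06 to 0.29; adjusted p 0.368 in limma). Plin1, Plin4 and Plin5, perilipins of fat, muscle and oxidative tissue, were each at 0.06 FPKM or less.

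**Figure D3:**
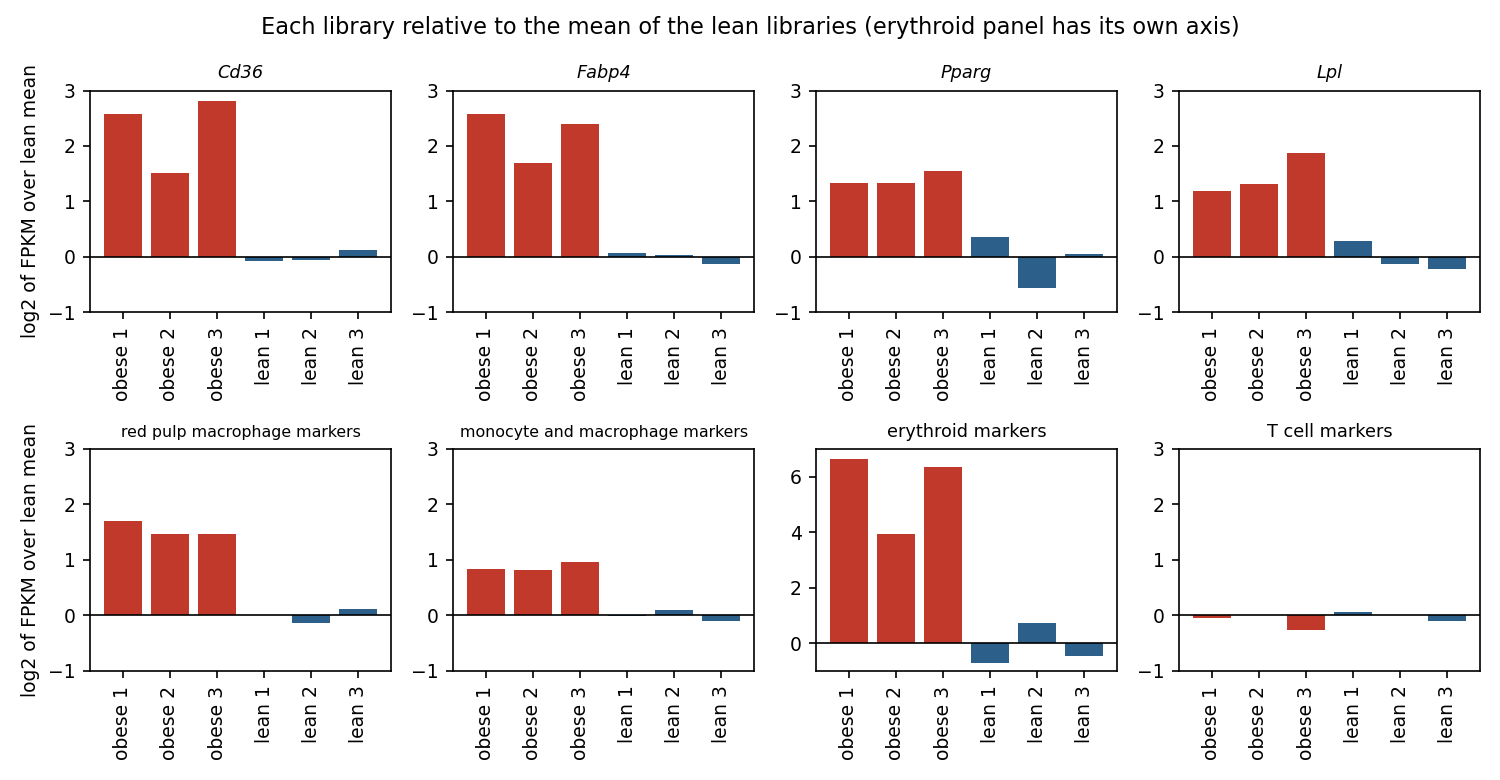
Log2 of the FPKM over the mean of the lean libraries (bars) for Cd36, Fabp4, Pparg and Lpl and for the summed markers of 4 cell types, in the 3 obese and then the 3 lean libraries; the erythroid panel has its own axis. Among the obese libraries Cd36, Fabp4, Pparg, the erythroid sum and the monocyte and macrophage sum are lowest in library 2. For Pparg and the monocyte and macrophage sum, library 2 is close to library 1. Lpl is lowest in library 1 and the red pulp sum in library 3.

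Beyond the 10 genes, 92 other genes of fatty acid handling were listed and all were found, 56 were tested, 6 rose and none fell. The 6 made up 10.7% of those tested, against 5.77% called as higher over all tested genes. The median difference was 0.17 over the 56 and 0.10 over all tested genes. These lists were also made with earlier results of these data known, so the shares are descriptions. Among genes that handle lipase and lipoproteins, 3 of 11 rose. Apoe, an apolipoprotein secreted by macrophages and liver, had 498.1, 407.8 and 378.2 FPKM in obese and 142.3, 209.2 and 143.7 FPKM in lean (difference 1.38, adjusted p 0.00184 in limma), Lrp1, an endocytic receptor for remnants, had a difference of 1.31 (adjusted p 0.000553) and Scarb1, the HDL receptor, 0.69 (adjusted p 0.00501). Among other droplet and triglyceride genes 1 of 19 rose: Mgll, the monoglyceride lipase, at 2.38, 1.49 and 4.56 FPKM in obese and 0.73, 0.53 and 0.69 FPKM in lean, a difference of 1.13 (adjusted p 0.0362) in a gene that entered the test only through the obese libraries. That call was lost in 4 of the 6 leave-one-library-out fits, without lean library 1, 2 or 3 or obese library 1, with an adjusted p up to 0.123. Among other PPAR targets 2 of 11 rose, Mgll again and Nr1h3, the sterol receptor LXR alpha, which had a difference of 1.27 (adjusted p 0.00311). Among other carriers, binding proteins and synthetases 0 of 7 passed, and Acsl5 and Acsl4 had the smallest p-values, with differences of 0.19 and 0.17.

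**Figure D4:**
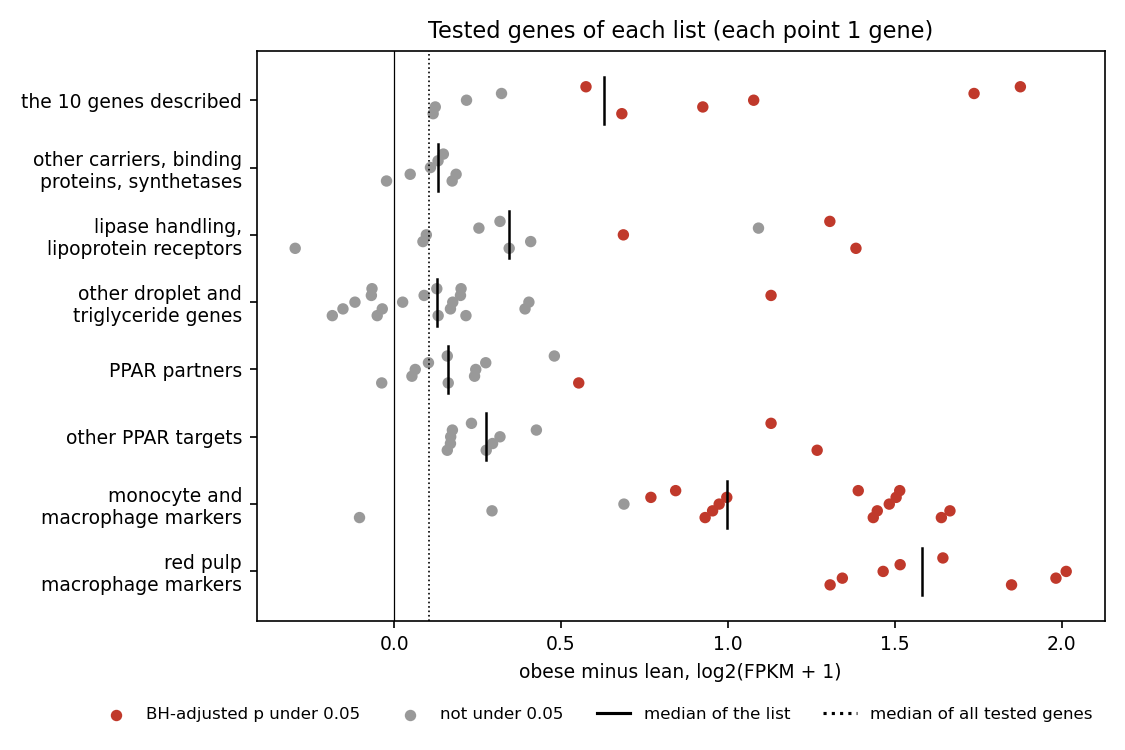
Difference between obese and lean on the log2(FPKM + 1) scale for each tested gene of the 10 genes, 5 other fatty acid lists and 2 macrophage marker lists. Red points passed the test, short lines are list medians and the dotted line is the median of all tested genes at 0.10.

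The obese libraries also held more RNA of macrophage and erythroid markers, and the values stand beside the 6 genes that rose. Of 12 T cell markers none passed, with summed FPKM of 3102 to 3736 in obese and 3475 to 3890 in lean. All 8 red pulp macrophage markers rose, with a summed level of 590.0 to 699.6 FPKM in obese and 194.9 to 232.0 FPKM in lean, and 14 of 17 monocyte and macrophage markers rose, at 1779 to 1965 FPKM in obese and 947.7 to 1079 FPKM in lean. All 11 erythroid markers found and tested rose, with summed FPKM of 29062, 4369 and 23562 in obese and 176.6, 477.3 and 210.8 in lean. Among the obese libraries, library 2 had the lowest erythroid sum and the lowest Cd36, Fabp4, Fabp5, Acsl1 and, by a small margin, Pparg. Its monocyte and macrophage sum of 1779 FPKM was also the lowest, beside 1817 FPKM in obese library 1 and 1965 FPKM in obese library 3. The red pulp sum was 594.7 FPKM in obese library 2 and lowest in obese library 3, at 590.0 FPKM. No marker of either macrophage list was at 0 in every library. None of 8 platelet markers passed, with sums of 54.2 to 76.2 FPKM in obese and 35.4 to 59.1 FPKM in lean, and the 1 fat cell marker of 8 that was tested did not pass. Of the 8, Adipoq was at most 0.54 FPKM, Retn at most 0.09 FPKM, Cfd at most 0.06 FPKM, and Lep, Plin1 and Cidec at most 0.03 FPKM in any library. Lipe, a lipase also made outside fat and the marker that was tested, was at 8.05 to 8.77 FPKM in obese and 5.95 to 8.80 FPKM in lean. Slc2a4, the insulin-responsive glucose transporter, was under the filter at 1.34, 0.18 and 1.68 FPKM in obese and 0.14, 0.07 and 0.05 FPKM in lean, with obese library 2 again the lowest of the obese libraries. None of 6 regulatory T cell markers passed. The part of these RNAs in the difference of the 6 genes was not tested.

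As shares of the red pulp marker sum, the 6 genes differed in direction. Cd36 was 1.78, 0.999 and 2.47% of the red pulp sum in obese and 0.914, 1.04 and 0.978% in lean, which overlapped because obese library 2 was in the lean range. Fabp4 was 1.47, 0.928 and 1.53% in obese and 0.831, 0.903 and 0.677% in lean, higher in each obese library. Pparg, at 0.687, 0.807 and 0.949% in obese and 1.14, 0.662 and 0.858% in lean, and Lpl, at 0.336, 0.429 and 0.634% in obese and 0.582, 0.482 and 0.379% in lean, overlapped. The shares of Fabp5 and Acsl1 were lower in each obese library. Set against the monocyte and macrophage sum instead, Cd36, Fabp4, Pparg and Lpl were higher in each obese library, with Cd36 at 0.685, 0.334 and 0.742% in obese and 0.196, 0.187 and 0.240% in lean. On that sum Fabp5, at 0.817 to 1.01% in obese and 0.934 to 1.19% in lean, and Acsl1, at 0.342 to 0.519% in obese and 0.359 to 0.495% in lean, overlapped. These ratios are descriptions, since 3 against 3 libraries cannot give an exact permutation p below 0.1.

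The genes with the profiles most like those of the called genes across the 6 libraries were found by the root mean square difference of log2(FPKM + 1) about each gene's mean, among 7788 or 7789 genes of at least 5 FPKM on average. For Cd36 these were Slc43a1 (0.105), Epor (0.137) and Rab3il1 (0.140). Slc43a1, an amino acid transporter, had 17.38, 8.59 and 24.85 FPKM in obese and 3.81, 3.42 and 4.00 FPKM in lean, and Epor, the erythropoietin receptor, had 10.48, 5.42 and 15.99 FPKM in obese and 2.22, 1.86 and 1.86 FPKM in lean. Both had obese library 2 as the lowest obese library. For Fabp4 these were Hebp1 (0.0939), Rab3il1 (0.118) and Cd36 itself (0.193), and Hebp1, which encodes a haem-binding protein, had 29.42, 14.12 and 22.64 FPKM in obese and 6.10, 5.42 and 5.91 FPKM in lean. For Pparg they were Il1r2, the decoy receptor of interleukin 1 (0.113), Slc45a3 (0.151) and Igsf6 (0.162), for Lpl Casp4 (0.0730), Atp6v0a1 (0.0868) and Tk1 (0.0951), for Fabp5 Parvb (0.0496), Cmas (0.0571) and Acp1 (0.0692), and for Acsl1 Uros (0.0654), Ccnb1 (0.0670) and Cdca8 (0.0707).

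By level, Plin2 and Plin3 stood above Fabp5, and Fabp5 above the remaining genes, in all 6 libraries. Cd36 ranked 4, 6 and 4 among the 10 genes in the obese libraries and 8, 7 and 7 in the lean libraries, and Lpl was last in all 6. Plin3 was above Plin2 in lean libraries 1 and 2 and below it in the other libraries.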

How the data were processed

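RNA was sequenced from 6 libraries, 3 obese and 3 lean. The deposited values are FPKM, fragments scaled to transcript length and library size, made by the authors; the submitters' processing notes name Bowtie, RSEM, GRCm38 and mm10, with no versions or roles. How reads were assigned by strand is not given in the sources used here. FPKM are not counts and the read depth is unknown, so no count model was used. A search for steps of 1 read in the values, which are rounded to 2 decimals, gave a step score of at most 0.386 of 1 over 3829 single-transcript genes. No cut-off was set for the score, so the search cannot settle whether such steps are present. FPKM summed to 595106 to 630744 in obese and 616104 to 656303 in lean, and no 2 libraries were identical.

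Values were tested as log2(FPKM + 1) with limma 3.58.1 in R 4.3.3 (lmFit, eBayes with a trend), over the 10788 genes that reached 1 FPKM in 3 or more libraries, 2-sided, with Benjamini-Hochberg adjustment over all of them. A fold change on this scale understates that of low genes. The test was checked on simulated data. Alternatives covered the pseudocount, the filter, the scaling, the variance settings, the replicate block and each library left out. The 10 genes and the gene lists were chosen with earlier results of these data known. Genes named were all 10, in each pathway list up to 4 called genes of smallest adjusted p or the 2 of smallest p, and for each called gene the 3 nearest by profile. Others, such as the partners of Lpl, the remaining perilipins, Ppara and the fat cell markers, were named outside that rule, after their values were seen. The same rule named genes in the marker lists, of which summed levels and counts are printed instead. Besides those described, plasma cell markers (2 of 6 rose), B cell (0 of 10), dendritic cell (0 of 6), endothelial (0 of 2), fat cell (0 of 1), Th2 (0 of 4), neutrophil (7 of 10 fell) and NK cell (3 of 7 fell) lists were counted. Sequences are RefSeq promoters of GRCm38.p6.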

Additional observations from a re-analysis of the deposited data

How the results depend on the processing

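Each count was recomputed under 17 alternatives. The 678 called genes became 368 with no filter on low values and 434 with quantile normalization, and leaving out each library in turn gave 318 to 698 (318 without lean library 2, 326 without lean library 1). The 6 of the 10 genes called stayed between 4 and 6 under all alternatives. Cd36, Fabp4 and Pparg were called in all 17 and Lpl in the 16 that tested it. The 6 other pathway genes called became 10 when haemoglobin and immunoglobulin genes were left out of the scaling, 4 with quantile normalization, the lowest count, and 5 to 8 when each library was left out. The difference reversed for Plin3 (-0.028) and Slc27a4 (-0.013) with median-of-ratios scaling and for Slc27a4 (-0.059) with quantile normalization; the cause was not tested. Whether the shared replicate numbers pair the libraries cannot be settled here. Same-numbered libraries correlated at 0.03, 0.06 and 0.19 in their deviations from the group mean, and the other pairs at -0.17 to 0.16. With so few libraries per group these deviations depend on each other. With the replicate number as a block, 1015 genes, 6 of the 10 genes and 9 other pathway genes were called. Read depth is unknown, and levels near 1 FPKM are the least certain.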

Other observations

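Some low PPAR targets stayed under the filter of 1 FPKM and were not tested; they were chosen after their values were seen. Ucp3, a mitochondrial carrier of muscle, had 0.38, 0.65 and 0.52 FPKM in obese and 0.08, 0.00 and 0.10 FPKM in lean. Aqp7, a glycerol channel of fat cells, had 0.59, 0.60 and 0.75 FPKM in obese and 0.19, 0.39 and 0.28 FPKM in lean. For both the obese values lay above the lean values, at levels where FPKM are least certain. Pdk4, a kinase that restrains glucose oxidation, was at 0.03 FPKM or less in every library.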
